A study of Arabidopsis thaliana with 36 samples.

Results

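The cytochrome P450 family was followed in Arabidopsis shoots and roots through 23 probe sets. Each of these is paired with 1 gene whose symbol is CYP, a family number from 51 up and a subfamily letter. They were 23 of 22810 probe sets on the array, and of 13513 paired with 1 gene. The gene table used for names lists 236 P450 genes by the same pattern, so 213 were not analysed here. The members were far from an even sample of the family: 19 belong to a single subfamily, CYP71B, and the other 4 are CYP78A9, CYP79A2, CYP84A4 and CYP51G2. In terms of P450 clans, 22 members fall in clan 71 and only CYP51G2 lies outside it, so clans could not be compared and members are compared by gene and by gene neighbourhood.

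Cytochrome P450s are heme enzymes that activate molecular oxygen and insert it into small molecules. Most plant P450s sit in the endoplasmic reticulum and take their electrons from a P450 reductase. Plants use them to build sterols, hormones, phenolics, glucosinolates and other defence compounds, and often in an organ-specific way. CYP71B is a large subfamily whose genes lie mostly in tandem rows, and for many of its members no substrate is assigned. Among the members, CYP71B6 acts on indole-3-acetonitrile, a compound of indole defence metabolism. CYP78A9 promotes organ and seed growth, CYP79A2 makes phenylacetaldoxime for benzylglucosinolate, and CYP84A4 takes part in making arabidopyrones. CYP71B31 is a floral enzyme of linalool metabolism, and CYP51G2 is a relative of the sterol demethylase gene CYP51G1.

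The samples were 18 shoot and 18 root RNAs of wild-type Col-0 plants, with 2 arrays for each tissue at 0, 0.25, 0.5, 1, 3, 4, 6, 12 and 24 h. All plants were controls of a stress experiment, grown on Murashige and Skoog medium in boxes at 24 °C and 50% humidity with 16 h of light a day. From day 16, starting 3 h after lights on, boxes were taken out, opened and their rafts lifted as for stressed plants, but no stress was given. Harvest at 12 h was therefore 15 h into the light, and harvest at 24 h was at the hour of the start. No label says whether both arrays of a group came from separate plants. The p-values measure only the spread between these samples, possibly a technical one, and 2 arrays a group limit the precision. Whole organs were sampled, so fewer cells of a type and less RNA per cell cannot be told apart.

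The signals are MAS5 intensities, scaled by the authors to a trimmed mean close to 100 on each array. The tissue markers followed the labels. In sum, 6 photosynthesis genes gave 20021 to 25962 in shoots, against 153 to 306 in roots. The root genes PYK10, EXPA7 and EXPA18 together gave 464 to 2027 in shoots, against 3201 to 4148 in roots. A set of 94 probe sets, chosen for organ means far higher in roots, showed a median of 5.41% and 2.33% of their root level in the 0 h shoots. The same median was 2.5% and 3.36% in the 4 h shoots, while every other shoot array had 1.08 to 2.06%. Replicate 1 of the 0 h shoots stands apart here, and results that rest on it are given with and without it.

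Of the 23 members, 13 reached the level set for testing, which was 40 or more on 2 or more arrays. These were 12 CYP71B genes and CYP78A9. The 10 members below it were CYP71B16, CYP71B21, CYP71B25, CYP71B27, CYP71B30P, CYP71B31, CYP71B38, CYP51G2, CYP79A2 and CYP84A4. No array gave any of these 10 a signal above 29.9, and their medians over the 36 arrays ran from 0.302 to 18.9. CYP84A4 had signals of 7.93 to 29.9 in shoots and 11.5 to 24.3 in roots, ranges that overlap. CYP79A2 stayed at 0.383 to 1.12 in shoots and 0.217 to 1.43 in roots. CYP51G2 and CYP71B27 are annotated as transcribed pseudogenes. CYP51G2 had signals of 2.8 to 18.1 in shoots and 5.99 to 18.4 in roots, and CYP71B27 6.39 to 18.7 in shoots and 3.73 to 21.4 in roots. For CYP71B31 the values were 0.276 to 5.64 in shoots and 0.492 to 6.52 in roots. CYP71B38 had 2.06 to 16.9 in shoots and 4.19 to 14.3 in roots, CYP71B16 0.47 to 8.95 in shoots and 1.15 to 4.59 in roots, and CYP71B21 0.234 to 1.17 in shoots and 0.183 to 0.989 in roots. With no filter, CYP51G2 and CYP71B31 were the 2 of these 10 that passed between the organs, both lower in shoots. A low signal does not show that a transcript is absent.

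**Figure D1:**
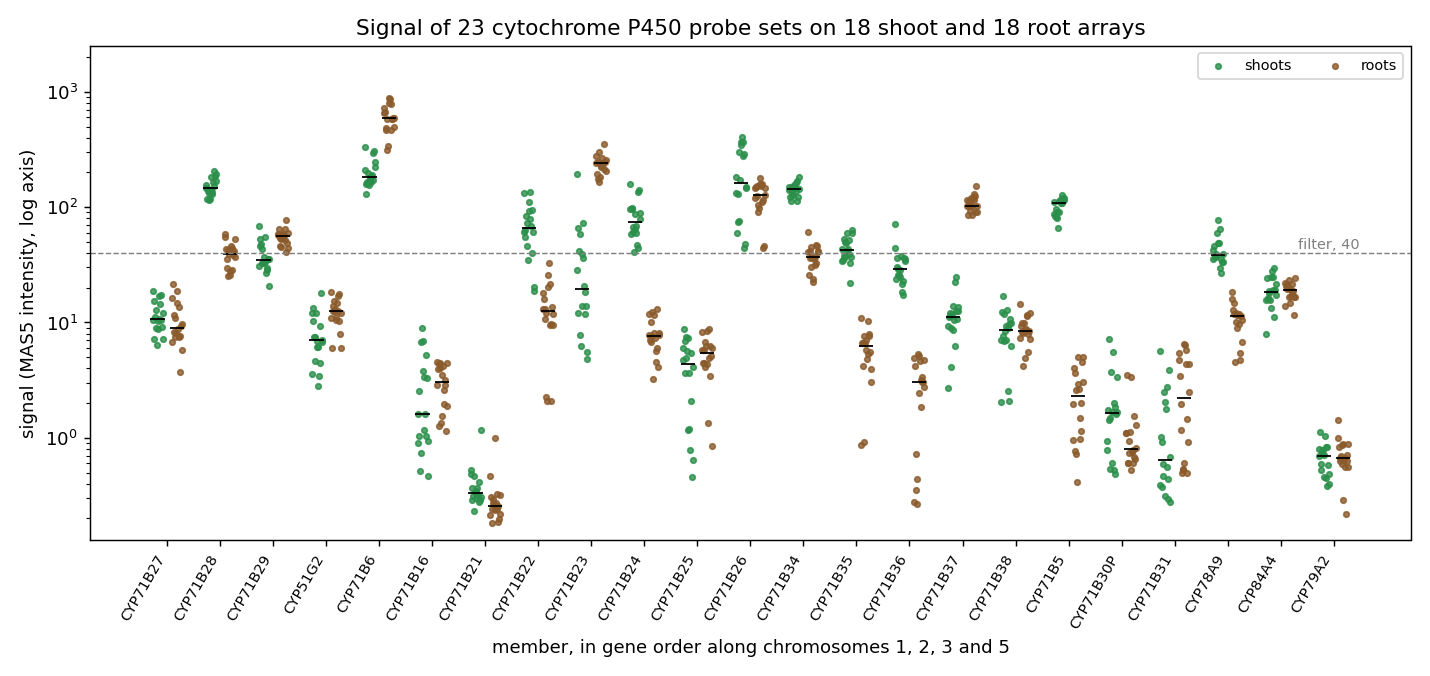
Signal of each of the 23 members (log axis, MAS5 intensity) on 18 shoot arrays (left of each pair) and 18 root arrays (right), with a bar at the median and a dashed line at the filter of 40. CYP71B5, CYP71B24, CYP71B28, CYP71B34, CYP71B35, CYP71B36 and CYP78A9 lie higher in shoots and CYP71B37 higher in roots with no overlap, and the 10 members below the filter reach at most 29.9.

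The comparison of shoots with roots over all times asks which organ carries each P450 transcript. A group of 9 members was higher in shoots, and 4 were lower there. CYP71B5 had the widest difference, with signals of 66.4 to 128 in shoots (median 109) and 0.41 to 5.07 in roots (median 2.31). CYP71B37 was the reverse, with 2.69 to 24.9 in shoots (median 11.2) and 85 to 152 in roots (median 103). All 13 tested members passed, by limma with an adjusted p under 0.05 over 15091 probe sets. Of all probe sets tested 92.2% did so, so the count is near that of the array as a whole. Of all probe sets 31.6% were called higher and 60.6% lower in shoots. Members passed the filter where they were high, so these counts support nothing by themselves. For 8 members the 18 shoot and 18 root arrays did not overlap, 7 higher and 1 lower in shoots, against 46.7% of all probe sets. The median log2 difference was 1.65 over the 13 members and -0.33 over all probe sets.

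Among the shoot-side members, CYP71B5 differed by 3.16 ± 0.044 (log2 difference ± SE, adjusted p = 4.4e-26). This is on the scale of log2(signal + 10), which understates a difference when the lower signal is near the background. Without the added 10 it was 5.69, and with 50 added it was 1.53, so its size is not fixed by these data while its direction is the same. CYP71B24 had signals of 40.5 to 159 in shoots (median 74) and 3.23 to 13.1 in roots (median 7.7), a difference of 2.3 ± 0.083. Its difference was 3.37 without the added 10 and 1.16 with 50 added. CYP71B28 had 115 to 205 in shoots (median 145) and 25.2 to 58.9 in roots (median 39.5), a difference of 1.71 ± 0.056. CYP71B28 reached the filter on 18 shoot arrays and on 8 root arrays. CYP71B34 reached it on as many, at 112 to 182 in shoots (median 144) and 22.7 to 61.4 in roots (median 36.9), with a difference of 1.69 ± 0.059.

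Lower shoot signals were seen for CYP71B35, CYP71B36 and CYP78A9. CYP71B35 had 22.2 to 63.2 in shoots and 0.863 to 10.8 in roots (1.76 ± 0.078), and CYP71B36 17.3 to 72.2 in shoots and 0.267 to 5.38 in roots (1.65 ± 0.078). CYP78A9, the growth gene, had 26.7 to 76.6 in shoots and 4.58 to 18.3 in roots (1.34 ± 0.073). These 3 genes did not overlap between the organs either, and CYP71B36 reached the filter on only 2 arrays and CYP78A9 on 7. The sizes depended on the added constant. Without the added 10, CYP71B35, CYP71B36 and CYP78A9 differed by 3.1, 3.94 and 2.04, and with 50 added by 0.74, 0.61 and 0.6. CYP71B22 had 18.6 to 136 in shoots (median 66.1) and 2.08 to 33 in roots (median 12.6), a difference of 1.72 ± 0.091. Its difference was 2.54 without the added 10 and 0.88 with 50 added. Its ranges overlapped through the 24 h shoot arrays, which were the lowest shoot arrays for this gene. CYP71B26 differed least among the shoot-side genes, by 0.42 ± 0.071 (adjusted p = 7.2e-06), with 44.2 to 410 in shoots and 44.4 to 180 in roots.

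On the root side, CYP71B6 had 129 to 333 in shoots (median 182) and 314 to 886 in roots (median 588). It differed by -1.52 ± 0.059 (adjusted p = 2.6e-17). The ranges met only where the highest shoot array, replicate 1 of 0 h at 333, exceeded the lowest root array, replicate 1 of 1 h at 314. From a list of 10 glucosinolate genes 2 are on the array under 1 gene, and both were lower in shoots. BCAT4, which starts methionine chain elongation, had a mean of 806 ± 201 in shoots and of 961 ± 144 in roots (SD over 18 arrays each), a difference of -0.27 ± 0.065. UGT74B1, which glucosylates thiohydroximates, averaged 386 ± 64.1 in shoots and 491 ± 63.8 in roots, a difference of -0.35 ± 0.046. From a list of 16 phenylpropanoid genes 2 are on the array under 1 gene, and both were higher in shoots. HCT, an acyltransferase of lignin synthesis, had 885 ± 212 in shoots and 599 ± 72 in roots (0.53 ± 0.039), and DFR, a reductase of anthocyanin synthesis, 47.6 ± 18.5 in shoots and 19.7 ± 11.3 in roots (0.97 ± 0.14). From a list of 6 carotenoid genes only LYC is on the array under 1 gene. It had 575 ± 139 in shoots and 131 ± 18.6 in roots (2.03 ± 0.04). Of all probe sets 92.2% were called between the organs, so calls of these partner genes show nothing about a pathway. CYP71B37 differed by -2.48 ± 0.094, which was -3.38 without the added 10 and -1.36 with 50 added. CYP71B29 differed by only -0.46 ± 0.079, with 20.6 to 68.6 in shoots and 41 to 78 in roots.

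CYP71B23 was lower in shoots, with a difference of -2.79 ± 0.22 (adjusted p = 1.9e-11) and the largest standard error of the 13. Its signals were 4.82 to 193 in shoots (median 19.5) and 166 to 354 in roots (median 242). The value of 193 came from replicate 1 of 0 h, and replicate 2 gave 28.3. That array carried 81.4% of the mean root signal of CYP71B23, while the 94 root-abundant probe sets stood at a median of 5.41% on it. CYP71B37, also a root-side gene, gave 9.4 on the same array, or 8.69% of its mean root signal. The root-side genes CYP71B6 and CYP71B29 had their highest shoot signals there, 333 and 68.6, or 55.1% and 124% of their mean root signals. Whether root material on this array accounts for these values was not tested. Without the 0 and 4 h arrays, an alternative added after the data were seen, all 13 members still passed, with 9 higher and 4 lower in shoots. No member changed direction or lost its call between the organs in any alternative that tested it.

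The organ patterns can be read along the chromosomes, because 17 of the 23 members lie in 4 rows of P450 genes with at most 5 other genes between neighbours. Of the 19 CYP71B members, 15 are on chromosome 3. In all 3 rows that hold at least 2 tested members, genes of both organ directions stood side by side. These rows hold 7, 11 and 8 P450 genes, of which only 2, 3 and 5 were tested. Of all probe sets 31.6% were called higher and 60.6% lower in shoots, so a mix within a row shows nothing by itself. On chromosome 1, CYP71B28 (AT1G13090), higher in shoots, is directly followed by CYP71B29 (AT1G13100), lower in shoots. In the first row on chromosome 3, CYP71B22 (AT3G26200) and CYP71B24 (AT3G26230) were higher in shoots, and CYP71B23 (AT3G26210), directly after CYP71B22, was lower. CYP71B16 and CYP71B21 of the same row were below the filter in both organs. In the second row, CYP71B26 (AT3G26290), CYP71B34 (AT3G26300), CYP71B35 (AT3G26310) and CYP71B36 (AT3G26320) were higher in shoots. The next gene, CYP71B37 (AT3G26330), was lower there. CYP71B25 (AT3G26270), at the other end of this row, stayed at 0.458 to 8.86 in shoots and 0.849 to 8.79 in roots. In the row of CYP71B5 (AT3G53280), its direct neighbour CYP71B30P (AT3G53290) had 0.481 to 7.21 in shoots and 0.527 to 3.52 in roots. All 23 probe sets carry the plain suffix of sets designed for 1 gene, but how far these related genes share signal on the array was not tested.

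The time course in shoots asks which members move over a day without stress. In both organs, hour of day and time since the boxes were opened ran together up to 12 h. Changes with either cannot be told apart. CYP71B26 moved most clearly. Its signals were 182 and 132 at 0 h, 59.9 and 74.5 at 0.25 h, and 130 and 76.4 at 0.5 h. They were 299 and 171 at 1 h, 347 and 367 at 3 h, 410 and 367 at 4 h, and 278 and 288 at 6 h. At 12 h they were 44.2 and 47.5, and at 24 h 147 and 150. The gene was thus high from 3 to 6 h, lowest at 12 h near the end of the light period, and back near its 0 h level a day later. The group means at 4 and 12 h differed 8.47-fold, and the group means spanned 2.83 on the log2 scale (moderated F-test by limma, adjusted p = 4.4e-10).

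In all, 8 of the 13 tested members changed over time in shoots, against 62.6% of all probe sets, so the share is close to that of the array. CYP71B22 had 133 and 61 at 0 h, 46.2 and 34.8 at 1 h, 93.3 and 111 at 3 h, and 136 and 79 at 4 h, and then 40.4 and 60.4 at 12 h and 20.3 and 18.6 at 24 h (span 1.95, adjusted p = 2.5e-05). It did not return to its 0 h level by the next morning. CYP71B24 was highest at 12 h (135 and 140) and lowest at 6 h (46.7 and 44.3), with a span of 1.41 (adjusted p = 0.00054). At 0 h it had 159 and 95.6, while replicate 2 of 0.25 h gave 97 and replicate 1 of 0.5 h 97.7. CYP71B6 was highest at 12 h (296 and 307) and lowest at 0.25 h (129 and 157), with a span of 1.03 (adjusted p = 0.00042). At 0 h it had 333 and 210, against 247 and 222 at 24 h. The high 0 h means of CYP71B24 and CYP71B6 thus rest in part on replicate 1 of 0 h. Their spans of 1.41 and 1.03 lie between other times, so leaving out that array could not change them. CYP71B26 was at its lowest at 12 h, when CYP71B24 and CYP71B6 were at or near their highest.

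The other 4 calls in shoots were smaller or less secure. CYP71B36 had 18.3 and 17.3 at 6 h, against 72.2 and 44.2 at 0 h (span 1.26, adjusted p = 0.0096), and its adjusted p was 0.12 without replicate 1 of 0 h and 0.15 with the 25S ribosomal RNA signal as a covariate. CYP71B5 was lowest at 1 h (80.3 and 66.4) and highest at 6 h (109 and 128), with a span of 0.63 (adjusted p = 0.0018). CYP71B28 was lowest at 1 h (115 and 117) and highest at 12 h (205 and 185), with a span of 0.7 (adjusted p = 0.015, and 0.055 without replicate 1 of 12 h). CYP78A9 was highest at 3 h (76.6 and 48.9) and lowest at 6 h (29.8 and 26.7), with a span of 0.9 (adjusted p = 0.021). Its adjusted p became 0.066 without replicate 1 of 3 h and 0.059 without replicate 2 of 6 h. Without the added 10, CYP71B36, CYP78A9, CYP71B5 and CYP71B28 all lost their call, at adjusted p = 0.96, 0.28, 0.94 and 0.053.

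CYP71B29, CYP71B34, CYP71B35, CYP71B37 and CYP71B23 did not pass in shoots. CYP71B23 had the widest span of the 5, 2.54, with an adjusted p of 0.056, and its replicates lay far apart (12.2 and 65.5 at 0.25 h, 42 and 7.72 at 0.5 h, 58.4 and 6.26 at 1 h). It passed without any 1 of 7 shoot arrays, namely replicate 2 of 0 h (adjusted p = 0.0046) or either array of 0.25, 0.5 or 1 h. CYP71B23 also passed without the added 10 (span 3.84, adjusted p = 0.044) and with the 25S covariate (span 3.58, adjusted p = 0.036). Of the others, CYP71B34 spanned 0.46, CYP71B29 0.67, CYP71B37 0.72 and CYP71B35 0.88. CYP71B29 passed in shoots without replicate 1 or 2 of 0 h, replicate 2 of 4 h or replicate 1 of 24 h, at adjusted p = 0.0316, 0.004, 0.0356 and 0.037. CYP71B35 passed in 8 alternatives, with an adjusted p as low as 0.0052 with 50 added in place of 10. CYP71B34 passed with 50 added and with shoots fitted alone (0.035 and 0.033), and CYP71B37 without replicate 1 of 6 h (0.04).

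**Figure D2:**
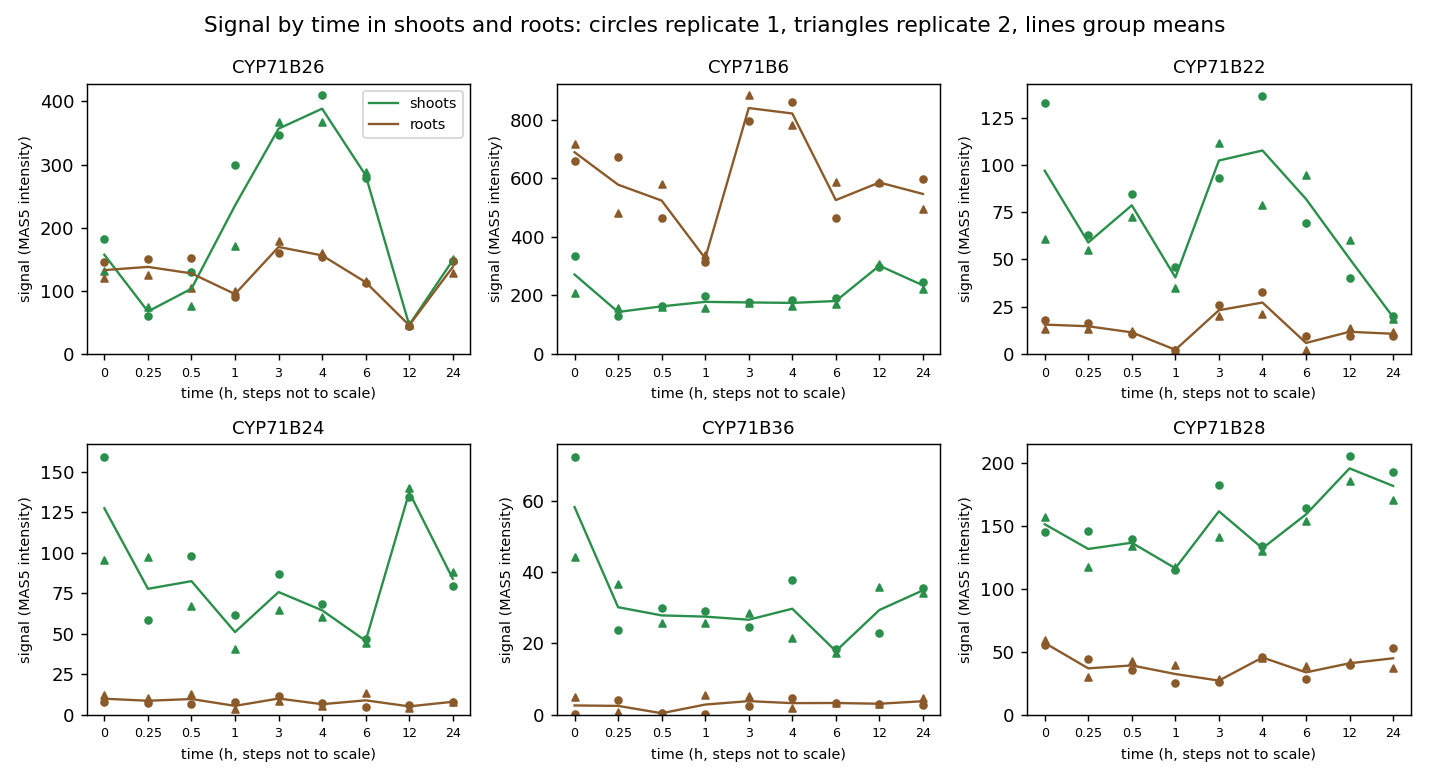
Signal (MAS5 intensity, linear axis) of 6 members at 9 times in shoots (green) and roots (brown), with circles for replicate 1, triangles for replicate 2 and lines through group means. CYP71B26 is at 44.2 to 47.5 in shoots and 44.4 to 46.4 in roots at 12 h, CYP71B6 in roots is lowest at 1 h, and CYP71B22 in shoots is lowest at 24 h.

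In roots, 5 of the 13 tested members changed over time, against 17.6% of all probe sets. CYP71B26 had 159 and 180 at 3 h, 44.4 and 46.4 at 12 h, and 148 and 128 at 24 h, against 145 and 120 at 0 h. Its span was 1.69 (adjusted p = 0.00029). Its lowest time was thus 12 h in both organs, where shoot signals of 44.2 and 47.5 stood beside root signals of 44.4 and 46.4. CYP71B6 had 660 and 719 at 0 h, 314 and 339 at 1 h, 795 and 886 at 3 h, and 862 and 782 at 4 h, with a span of 1.34 (adjusted p = 0.00051). The lowest and highest times of this indole gene in roots thus lay 2 h apart. CYP71B22 had signals of 2.26 and 2.08 at 1 h and 33 and 21.4 at 4 h in roots (span 1.59, adjusted p = 0.0045). These root signals all lie under the filter, and with 50 added in place of 10 the adjusted p was 0.16.

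CYP71B28 and CYP71B34, named after their values were seen, made up the rest of the root calls, and both were highest at 0 h and lowest at 3 h. CYP71B28 had 25.8 and 28.2 at 3 h, against 54.9 and 58.9 at 0 h (span 0.85, adjusted p = 0.02). Without replicate 2 of the 0 h roots its adjusted p was 0.074, and without replicate 1 of the 3 h roots 0.062. It was 0.15 with the 25S ribosomal RNA signal as a covariate (span 0.7) and 0.09 with roots fitted alone. CYP71B34 had 23.8 and 22.7 at 3 h, against 41.2 and 61.4 at 0 h (span 0.86, adjusted p = 0.049). The call of CYP71B34 lay at the threshold and was lost in 34 of 46 alternatives, with an adjusted p of up to 0.43. The other 8 tested members did not pass in roots. Among them were the root-side genes CYP71B23 (span 0.72, adjusted p = 1), CYP71B37 (0.37, adjusted p = 0.9) and CYP71B29 (0.43, adjusted p = 0.77). CYP78A9 spanned 0.6 with an adjusted p of 0.28.

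Whether the time courses differed between the organs was tested directly. The difference passed for 6 of the 13 members, against 40.9% of all probe sets. It was clearest for CYP71B26 (adjusted p = 1.5e-05) and for CYP71B6 (adjusted p = 0.00057). Against 0 h, CYP71B26 changed at 0.25 h by -1.1 ± 0.21 in shoots and 0.051 ± 0.21 in roots. At 4 h it changed by 1.27 ± 0.21 in shoots and 0.22 ± 0.21 in roots. Its rise at 3 h was also larger in shoots. From 0.5 to 3 h, CYP71B6 stayed between 157 and 199 in shoots and moved between 314 and 886 in roots. Over all times its shoot signals were not flat, at 129 to 333. CYP71B22 followed at adjusted p = 0.011 (0.09 with the 25S ribosomal RNA signal as a covariate) and CYP71B24 at 0.022. CYP71B24 lost its call without either 12 h shoot array (0.058 and 0.065) and without replicate 2 of the 12 h roots (0.075). Without the added 10 its adjusted p was 0.18. CYP71B5 and CYP71B28 passed at 0.029 each. For CYP71B5 the adjusted p was 0.05 to 0.061 without any of the 4 arrays of 0.25 h, replicate 1 of the 1 h roots or replicate 2 of the 6 h shoots or roots. It was 0.11 without the added 10 and 0.064 with a trended, robust prior. For CYP71B28 it was 0.05 to 0.065 without replicate 1 of the 0, 3 or 12 h shoots, replicate 2 of the 0 h roots or replicate 1 of the 3 h roots.

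Single times were set against 0 h to show direction. All these comparisons within an organ share its 0 h arrays. In shoots, 4 of the 13 members passed at 1 h and all were lower, against 12.2% of all probe sets called in either direction, 6.68% higher and 5.47% lower. They were CYP71B24 (61.3 and 40.5 at 1 h, -1.15 ± 0.25), CYP71B22 (-1.01 ± 0.27), CYP71B36 (29.1 and 25.8 at 1 h, -0.83 ± 0.23) and CYP71B6 (199 and 157 at 1 h, -0.56 ± 0.18). Their adjusted p values were 0.0034, 0.018, 0.022 and 0.044. Without replicate 1 of the 0 h shoots none of the 13 passed. The 4 changes then stood at -0.81, -0.5, -0.53 and -0.23, with adjusted p = 0.081, 0.31, 0.25 and 0.51. On that array 11 of the 13 tested members had a higher signal than on replicate 2, and 7 were at least 1.5 times as high. Without replicate 2 of 0 h 7 members passed, and without replicate 2 of 1 h 1 did. The array's 25S ribosomal RNA signal averaged 1880 ± 713.8 in 1 h shoots and 989.9 ± 60.3 in 0 h shoots (SD of 2 arrays). The signal thus differed between these times, so a fit that includes it separates signal from time only weakly. A limma fit with this signal as a covariate called 0 members, with CYP71B24 at -0.92, CYP71B22 at -1.02, CYP71B36 at -0.8 and CYP71B6 at -0.34 (adjusted p = 0.15, 0.15, 0.19 and 0.5). Without the added 10 the 4 also missed the threshold (0.062, 0.11, 0.6 and 0.05). CYP71B6 lost its call at 1 h in 17 of 46 alternatives, and CYP71B22 also with shoots fitted alone (0.059).

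At 6 h in shoots 4 members passed, against 34.6% of all probe sets (18.7% higher and 15.9% lower). CYP71B26 rose by 0.83 ± 0.21 (adjusted p = 0.0044), the only rise among the called members at the 4 times, and its adjusted p was 0.076 without replicate 2 of 0 h. CYP71B24 fell by 1.27 ± 0.25 and CYP71B36 fell by 1.26 ± 0.23 (adjusted p = 0.00038 and 0.00019). These 2 falls passed also without replicate 1 of 0 h, at -0.93 and -0.96. CYP71B6 was called at -0.53 ± 0.18 (adjusted p = 0.025, and 0.47 without replicate 1 of 0 h, 0.15 without replicate 2 of 6 h). With the 25S signal as a covariate, 2536 ± 181 at 6 h, CYP71B24 and CYP71B36 stood at -0.91 and -1.21 with adjusted p = 0.22 and 0.075, and CYP71B6 at -0.2 with 0.76. CYP71B6 had 0.052 after quantile normalization. Without the added 10, CYP71B36 was at -1.67 with an adjusted p of 0.26. CYP78A9, not called at 6 h, passed only with the 25S covariate (-1.21, adjusted p = 0.024).

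At 12 h in shoots 4 members were lower, against 34.5% of all probe sets called in either direction, 18.5% higher and 15.9% lower. CYP71B26 fell by 1.56 ± 0.21 (adjusted p = 5.3e-06), and this call held in every alternative, from -1.78 to -1.1. The other 3, CYP71B23 (-1.94 ± 0.65), CYP71B36 (-0.78 ± 0.23) and CYP71B22 (-0.76 ± 0.27), had adjusted p = 0.024, 0.012 and 0.035. Without replicate 1 of 0 h they stood at -0.74, -0.48 and -0.25 with adjusted p = 0.47, 0.21 and 0.57. All 3 also lost their call without replicate 1 of 12 h (0.1, 0.18 and 0.28), and CYP71B23 without replicate 2 of 12 h (0.076). With the 25S covariate CYP71B23, CYP71B36 and CYP71B22 stood at -1.29, -0.76 and -0.77 with adjusted p = 0.22, 0.053 and 0.096. With shoots fitted alone CYP71B23 and CYP71B22 missed the threshold (0.098 and 0.076). CYP71B36 and CYP71B22 missed it without the added 10 (0.53 and 0.16), and CYP71B22 with no filter (0.051).

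The 24 h samples share the hour of day with the 0 h samples. In shoots 2 members were lower at 24 h, against 15.5% of all probe sets called, 7.77% higher and 7.76% lower. CYP71B22 had 20.3 and 18.6 at 24 h, against 133 and 61 at 0 h, a difference of -1.77 ± 0.27 (adjusted p = 0.00018) that held in every alternative, from -2.28 to -1.04. CYP71B23 had 4.82 and 5.51 at 24 h, against 193 and 28.3 at 0 h, a difference of -2.54 ± 0.65 (adjusted p = 0.011). For CYP71B23 the difference was -1.34 without replicate 1 of 0 h (adjusted p = 0.3), and the call was also lost without either 24 h array (0.073 and 0.056) and with shoots fitted alone (0.072). Without replicate 2 of 0 h 5 members passed. CYP71B26, in contrast, had 147 and 150 at 24 h, against 182 and 132 at 0 h (-0.06 ± 0.21, adjusted p = 0.89).

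In roots 3 members were lower at 1 h, against 7.91% of all probe sets called in either direction, 3.87% higher and 4.04% lower. CYP71B6 fell by 1.05 ± 0.18 (adjusted p = 0.001), with 314 and 339 at 1 h, against 660 and 719 at 0 h, and this held when any single array was left out. CYP71B22 (-1.06 ± 0.27, adjusted p = 0.021) had 2.26 and 2.08 at 1 h, against 18 and 13 at 0 h, signals near the background. CYP71B28 was called at -0.68 ± 0.17 (adjusted p = 0.015), with 25.2 and 39.2 at 1 h, against 54.9 and 58.9 at 0 h. CYP71B22 lost its call without replicate 1 of 0 h or either 1 h array (0.15, 0.12 and 0.094), and CYP71B28 without either 0 h array or replicate 1 of 1 h (0.061, 0.082 and 0.25). The 25S signal averaged 2333 ± 30.2 in 1 h roots and 1286 ± 107 in 0 h roots. Because it differed between these times, a fit with it as a covariate separates signal from time only weakly. The limma fit with this covariate called 0 members, with CYP71B6 at -0.84, CYP71B22 at -1.07 and CYP71B28 at -0.54 (adjusted p = 0.12, 0.24 and 0.33). With 50 added in place of 10, CYP71B22 was at -0.33 with an adjusted p of 0.22.

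Later in the day fewer root members passed. At 6 h only CYP71B28 was called (-0.63 ± 0.17, adjusted p = 0.028, against 5.43% of all probe sets, 3% higher and 2.43% lower), and its call was lost without either 0 h array or replicate 1 of 6 h (0.076, 0.17 and 0.27), with the 25S covariate (0.18) and with roots fitted alone (0.075). At 12 h only CYP71B26 was called, and it fell by 1.36 ± 0.21 (adjusted p = 0.00046, against 3.8% of all probe sets, 2.14% higher and 1.66% lower). This held in every alternative, from -1.54 to -0.93. CYP78A9, not called at 6 or 12 h, passed at both only with the 25S covariate (-0.96 and -0.87, adjusted p = 0.027 and 0.038). At 24 h 0 of the 13 members passed by limma, with 2 at an unadjusted p under 0.05, against 2.02% of all probe sets (1.44% higher and 0.577% lower), and 0 passed in every alternative.

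**Figure D3:**
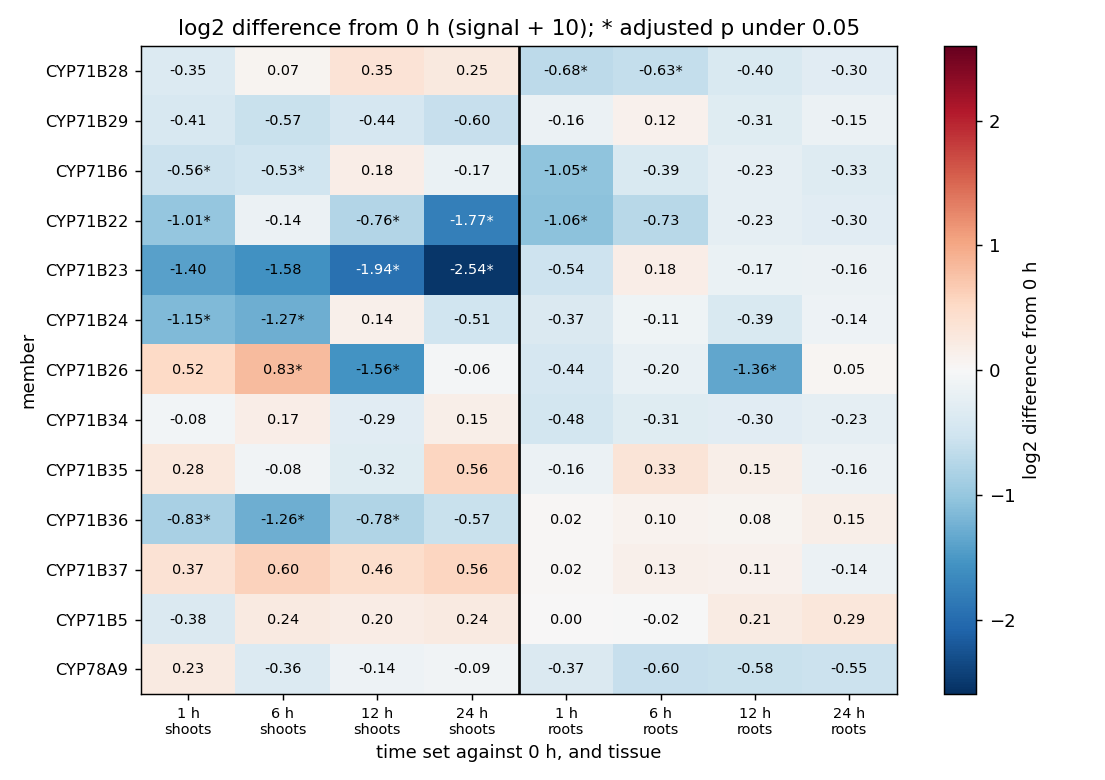
log2 difference of signal + 10 from 0 h for the 13 tested members (down) at 1, 6, 12 and 24 h in shoots (left) and roots (right). Colour and printed value give the size, and a star marks an adjusted p under 0.05. CYP71B26 has the only called rise (0.83, 6 h in shoots), and it falls at 12 h in both organs (-1.56 and -1.36).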

How the data were processed

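RNA of 36 samples had been hybridised to Affymetrix ATH1 arrays. The deposited intensity values, 1 per probe set and array, were made by the authors with MAS5, per the submitters' processing notes, with no version stated there. The authors' scaling gave a mean between 100.007 and 100.01 on every array after the lowest and highest 2% were left out, and no further scaling was applied.

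The 64 control probe sets were set aside, and tests covered the 15091 probe sets that reached 40 on 2 or more arrays, 13 members among them. Values were log2(signal + 10). A fit of 18 group means was made with limma 3.58.1 in R 4.3.3, with 18 residual and 4.06 prior degrees of freedom. Benjamini-Hochberg adjustment covered all 15091, 2-sided, with a threshold of 0.05. The procedure was run on simulated data with known changes in a single contrast and independent noise. Those data held no shift of a whole array, so that case was not tested. Gene names and neighbours come from the TAIR10.1 gene table, without coordinates.

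The members, lists, tests and alternatives were chosen with earlier results of these data known. Named by rule were the 8 largest non-overlapping organ differences each way, the 8 smallest p in each time course (span of at least 1) and in the difference of the courses. So were the 3 largest changes each way at 1, 6, 12 and 24 h, with both arrays beyond both 0 h arrays. CYP71B6 and CYP78A9 were also followed in every comparison as members of lists of P450s by known role. Where the text leaves them out of a comparison, they did not pass in the fit described above. Any other tested member of a comparison was named after its values were seen. Alternatives changed the added constant, filter, scaling, prior, covariate, tissues fitted and replicate block, and left out each array. Same-numbered shoot and root arrays did not deviate together (correlation -0.115 to 0.0502), so no pairing was used.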

Additional observations from a re-analysis of the deposited data

Results flagged for a closer look

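The time courses of 6 members differed between shoots and roots by the interaction test of limma. The adjusted p was 1.48e-05 for CYP71B26, 0.000573 for CYP71B6, 0.0115 for CYP71B22, 0.0222 for CYP71B24, 0.0286 for CYP71B5 and 0.0291 for CYP71B28. The difference of the time courses spanned 2.2, 1.34, 2.06, 1.69, 0.76 and 0.93 on the log2 scale in the same order. CYP71B5 had root signals of at most 5.07 and CYP71B24 of at most 13.1, so their difference is that of the shoot course from a signal near the background. The root signals of CYP71B22 were at most 33, under the filter of 40 on all 18 root arrays.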

How the results depend on the processing

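Counts are of the 13 tested members. The organ comparison kept all 13 calls, except that 9 of 9 tested members passed with a filter of 100 and 15 members passed with no filter. Without the added constant, 5 members passed in the shoot time course, 0 at 1 h and 2 at 12 h in shoots, and 2 at 6 h in roots. With 50 added, 3 passed in the root time course and 4 at 24 h in shoots. With the 25S covariate, 3 passed in the root time course, 0 at 1 h, 2 at 6 h and 1 at 12 h in shoots, and 0 at 1 h and 2 at 12 h in roots. With each organ fitted alone, 3 passed in the root time course, 2 at 1 h, 2 at 12 h and 1 at 24 h in shoots, and 0 at 6 h in roots. Leaving out 1 array at a time gave 13 to 13 calls between organs, 7 to 10 in the shoot and 3 to 5 in the root time course, and 4 to 8 for their difference. Against 0 h it gave 0 to 7 at 1 h, 3 to 5 at 6 h, 1 to 5 at 12 h and 1 to 5 at 24 h in shoots, and 1 to 3, 0 to 1, 1 to 1 and 0 to 0 at the same times in roots. With replicate number as a block, 13 members passed between organs and 8 in the shoot time course, and no call of a named member changed. Over 84 results of single members and 3824 alternatives, 140 lost a call, 40 gained one and 0 changed direction as a call. Signals near the background limit what the 10 members below the filter can show.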
